A study of Mus musculus with 6 samples.

Results

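The enzymes that write and erase DNA methylation were compared between label-retaining and non-label-retaining haematopoietic stem cells (HSCs) of the mouse. The group comprised 7 genes, chosen by name: Dnmt1 and Uhrf1 for maintenance methylation, Dnmt3a and Dnmt3b for de novo methylation, and Tet1, Tet2 and Tet3 for oxidation of the mark. All 7 were measured, by 19 of the 45037 probe sets tested, each of which names that gene alone in the platform annotation. A probe set is a group of short array probes against 1 transcript. Dnmt3a had 5 probe sets, Tet1 had 4, Dnmt1 had 3, Uhrf1, Dnmt3b and Tet2 had 2 each, and Tet3 had 1.

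The cells came from the SCL-tTA H2B-GFP mouse line, in which the endogenous scl locus (Tal1) expresses the tTA-S2 transactivator, which drives a histone H2B fused to green fluorescent protein (GFP) in early blood cells. Doxycycline stops production of the fusion protein, which is then diluted as cells divide. After a chase of 170 days on doxycycline, bone marrow cells positive for c-Kit, Sca1 and CD150 and negative for CD34, CD48 and lineage markers were sorted into GFP-positive label-retaining cells (LRC) and GFP-negative cells (non-LRC). All 6 samples, 3 in each group, thus carried the transgenes, had the drug and passed the same surface gate. The labels call the 3 samples of a group independent biological replicates. The age of the mice and the number of mice behind each sample are not given in the sources used here. A cell without GFP may have lost it by division or never have had it, and these cannot be told apart here.

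DNA methylation is the addition of a methyl group to cytosine, in mammals mostly at CpG. After replication a CpG carries the mark on the parental strand alone. UHRF1 binds such hemimethylated sites and brings DNMT1, which copies the mark to the daughter strand. DNMT3A and DNMT3B set marks on unmethylated DNA, and TET enzymes oxidize methylcytosine, which leads to its loss. In blood, DNMT3A and TET2 are among the genes most often mutated in clonal haematopoiesis, and loss of either in mice changes HSC self-renewal and differentiation.

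Values are log2 expression as deposited, so a difference of 1 is a 2-fold change. Array medians lay between 4.33 and 4.39. The array of LRC replicate 1 stood apart: its Pearson correlations with the other arrays, across probe sets, were 0.901 to 0.919. Its spiked poly-A controls averaged 12.79, against 10.73 to 11.92 elsewhere. The control probe sets for the 3' and 5' ends of Gapdh differed there by 4.16 (3' minus 5'), against 2.72 to 3.42 elsewhere. For actin the value was -0.04, against -0.61 to -0.13 elsewhere. The part of these RNA controls in the results below was not tested. Kit, the c-Kit receptor of the gate, lay at 9.00 to 9.13 on all arrays, and Cd48, absent by the gate, at 2.34 to 3.27. Cd34, also absent by the gate, read 2.52, 6.97 and 5.10 on the LRC arrays against 7.43, 6.60 and 5.62 on the others, so most arrays of either group gave signal for it. Slamf1 (CD150), present by the gate, read 6.24, 7.76 and 8.83 on the LRC arrays against 7.20, 8.26 and 8.48 on the others. Sca1 (Ly6a) is not analysed here. Of 9 gate and HSC identity genes measured, 5 had a higher mean in LRC and 4 a lower one. Hlf was at 11.54, 11.17 and 11.20 in LRC against 11.02, 11.07 and 10.70, all LRC above all non-LRC (4.71% of all genes). Procr, Mecom and Tal1 were higher and Flt3 lower in LRC by mean, with overlapping groups. Markers of T cells averaged 2.83 to 3.23 on every array, those of B cells 4.12 to 4.58, of erythroid cells 3.52 to 4.71, of stroma 4.35 to 4.70 and of endothelium 4.33 to 5.21. Those of myeloid cells averaged 7.10 on non-LRC replicate 1, 6.05 and 6.01 on the other non-LRC arrays and 5.03 to 6.16 in LRC, and megakaryocyte markers 6.16 to 6.71 in non-LRC and 5.76 to 6.38 in LRC. The part of these cells in the results below was not tested.

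In the comparison of LRC with non-LRC, Uhrf1 was the 1 member whose groups did not overlap. Both of its probe sets lay lower on every LRC array than on every non-LRC array, by about 3-fold on average. Groups were separated in 2 of 19 member probe sets and in 8.28% of all, or 3.40% with LRC below. Without non-LRC replicate 1 the Uhrf1 differences were -0.94 and -1.29. Dnmt1, the partner of Uhrf1 in maintenance, had overlapping groups. Dnmt3a had a higher mean in LRC in all 5 probe sets, with overlapping groups. Tet2 (-0.49 and -0.36) and Tet3 (-0.33) had a lower mean in LRC in each probe set, also with overlapping groups. Dnmt3b and Tet1 gave differences of either sign. None of the 19 probe sets passed limma's test at an adjusted p of 0.05, nor did any of the 45037 (0%); the smallest adjusted p of a member was 0.998. At an unadjusted limma p under 0.05 there were 2 member probe sets, both of Uhrf1 and both lower in LRC, against 1673 of all probe sets (3.71% in either direction, 1.97% lower and 1.74% higher in LRC). Of the members' probe sets 10 of 19 had a lower mean in LRC, against 44.7% of all, and 9 a higher one, against 55.3%, and their median difference was -0.21 against 0.04 for all. All 19 had a mean above the 40th percentile of all probe sets.

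**Figure D1:**
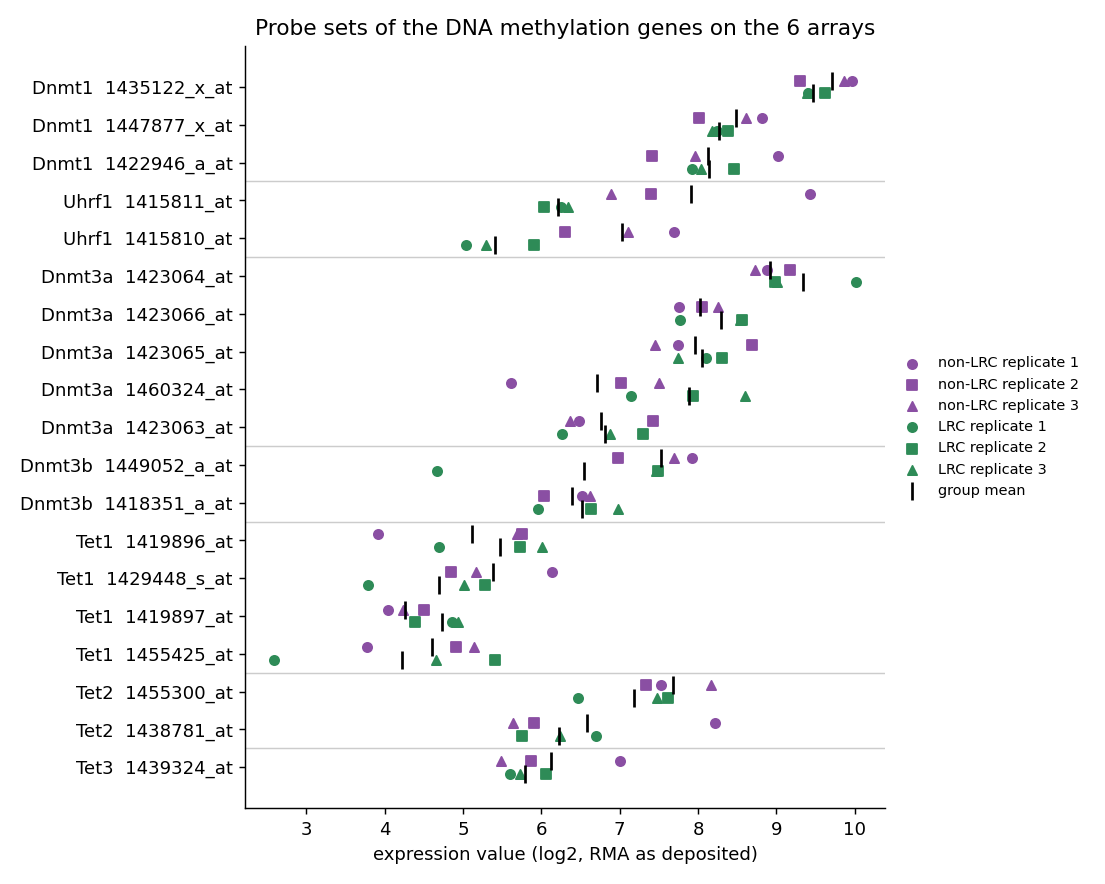
Expression values (log2, as deposited) of the 19 probe sets of the 7 genes on the 6 arrays; each symbol is 1 array, colour marks the group, symbol shape the replicate number and the black bar the group mean. The 2 Uhrf1 probe sets have all LRC values below all non-LRC values, while the groups overlap for the other 17; brightness of different probe sets is not comparable.

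Uhrf1 (chr17:56303337-56323486; all gene coordinates are those of RefSeq on GRCm38.p6) encodes the hemimethyl-CpG reader that recruits DNMT1. Its brighter probe set, 1415811_at, was at 6.25, 6.04 and 6.34 on the LRC arrays against 9.43, 7.40 and 6.88 on the non-LRC arrays. The LRC values lay close together, and non-LRC replicate 1 lay far above the other non-LRC arrays. The LRC mean was 6.21 ± 0.15 and that of non-LRC was 7.90 ± 1.35 (SD, n = 3 per group), a difference of -1.70 (SE 0.64, 95% interval -3.25 to -0.14), or 3.24-fold lower in LRC. The other probe set, 1415810_at, was at 5.04, 5.91 and 5.29 on the LRC arrays against 7.69, 6.30 and 7.11 on the non-LRC arrays. Here too the groups did not overlap, with the nearest values those of replicate 2 in each group. The means were 5.41 ± 0.45 and 7.03 ± 0.70 (SD, n = 3 each), a difference of -1.62 (SE 0.41, 95% interval -2.62 to -0.62), or 3.08-fold. The limma adjusted p was 0.998 for either, so the difference did not pass over all probe sets.

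The groups did not overlap for 2 of 19 member probe sets and for 8.28% of all: LRC lay below in 2 members and 3.40% of all, and above in 0 members and 4.88% of all. Among 4695 genes with 2 probe sets, 23 (0.490%) had both separated in this way, a count made after the Uhrf1 values were seen. Both Uhrf1 probe sets are listed against 1 database sequence, and they were read from the same arrays, so they are no independent replicates of each other. The size of the difference rested in part on non-LRC replicate 1: without it the difference was -0.94 for 1415811_at and -1.29 for 1415810_at. That array also had the highest mean of myeloid markers (7.10). Among them S100a8 was at 8.27 there, against 4.27 to 5.74 elsewhere, and Elane was highest there too. Mpo, Lyz2 and Itgam were highest on other arrays. The part of these markers in the Uhrf1 values was not tested. Leaving out LRC replicate 1, the array with bright poly-A controls, gave -1.72 and -1.43. Without LRC replicates 1 and 3 together, whose hybridization controls were bright (11.24 and 11.02, against 10.58 to 10.70 elsewhere), the values were -1.87 and -1.12, which is a comparison of 1 array with 3. In sorted samples, fewer cells that express a gene and less of its RNA per cell cannot be told apart.

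**Figure D2:**
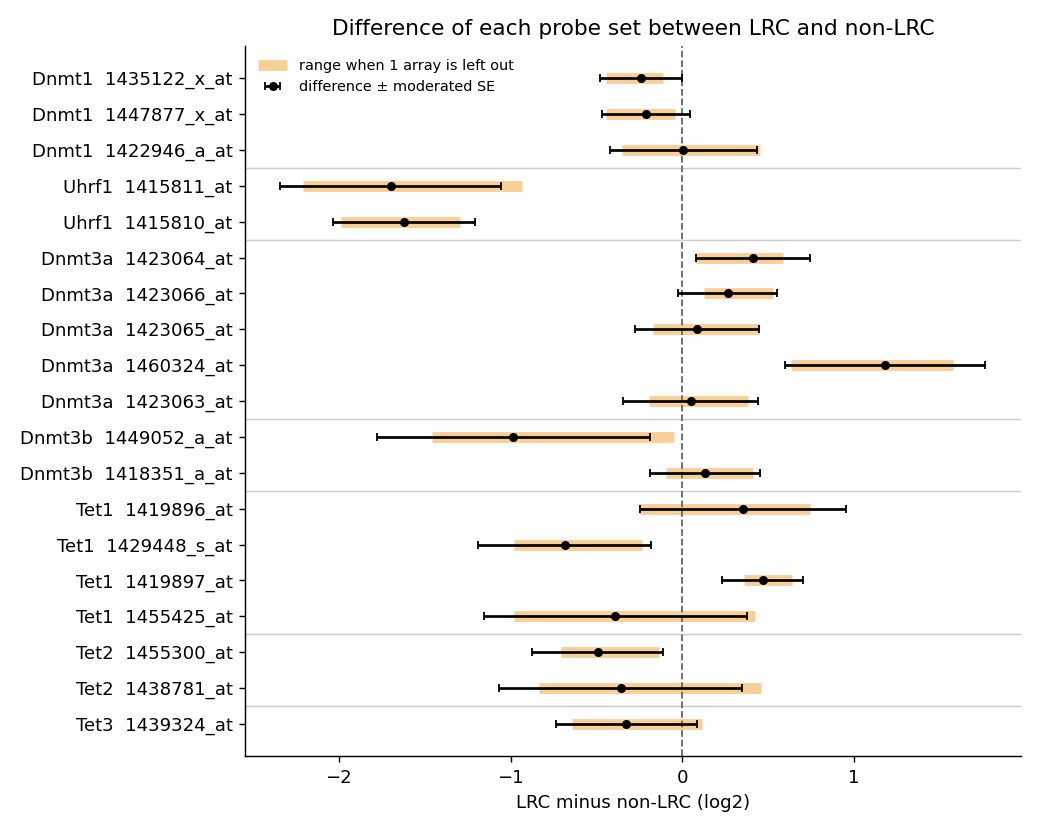
LRC minus non-LRC (log2) of each probe set: points are limma's difference, black bars its moderated standard error (n = 3 per group), and orange bars the range when 1 array is left out. The orange bars of Uhrf1 run from -2.21 to -0.94 and from -1.99 to -1.29, while 8 probe sets have an orange bar that reaches across 0.

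The promoters of the maintenance pair were set side by side because Uhrf1 and Dnmt1, which act in 1 step, differed in their values between the groups. RefSeq windows on GRCm38.p6 run from 250 bases before to 50 after a transcript start; they are printed to 30 after it. Uhrf1 (chromosome 17) has 2 such windows, both shown. Dnmt1 (chromosome 9) has 3, of which the second is shown for contrast. It alone lacks both motifs marked below, so its contrast with Uhrf1 was fixed by the choice of window. It does not stand for the other Dnmt1 windows, which hold matches. Capitals mark TTTNNCGC, a loose form of the site of E2F factors, which drive S phase genes, and CCAAT, the box bound by NF-Y. Both strands were searched, and overlapping matches were counted separately.
Uhrf1 chr17:56303087-56303366 (plus strand): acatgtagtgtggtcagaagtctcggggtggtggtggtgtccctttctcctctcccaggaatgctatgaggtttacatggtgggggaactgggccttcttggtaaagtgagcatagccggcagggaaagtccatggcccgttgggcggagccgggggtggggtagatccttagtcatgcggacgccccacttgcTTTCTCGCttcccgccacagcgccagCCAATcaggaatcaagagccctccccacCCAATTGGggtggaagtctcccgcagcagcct
Uhrf1 chr17:56304063-56304342 (plus strand): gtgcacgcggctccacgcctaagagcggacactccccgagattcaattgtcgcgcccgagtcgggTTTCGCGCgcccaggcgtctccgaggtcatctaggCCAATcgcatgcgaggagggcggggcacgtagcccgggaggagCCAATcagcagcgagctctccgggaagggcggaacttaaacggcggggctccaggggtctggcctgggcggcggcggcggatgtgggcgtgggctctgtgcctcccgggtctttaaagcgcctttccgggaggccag
Dnmt1 chr9:20952950-20953229 (minus strand): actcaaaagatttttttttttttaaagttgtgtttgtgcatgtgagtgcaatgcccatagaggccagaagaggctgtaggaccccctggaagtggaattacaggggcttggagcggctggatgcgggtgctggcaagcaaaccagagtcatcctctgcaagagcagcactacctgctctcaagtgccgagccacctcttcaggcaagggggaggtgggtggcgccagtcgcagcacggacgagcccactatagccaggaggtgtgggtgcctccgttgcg

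The Uhrf1 windows held 1 match each to TTTNNCGC, and 3 and 2 to CCAAT. The Dnmt1 window shown has no match to either motif. The third Dnmt1 window, at a start further into the gene, held 3 of each, with 2 of its TTTNNCGC matches overlapping, and the first held CCAAT alone. TTTNNCGC was found in 5.17% of 32851 promoter windows of this length and CCAAT in 37.4%. TTTNNCGC itself holds a CpG, and these windows had a median of 7 CpG. The Uhrf1 windows had 12 and 33, and the Dnmt1 windows 2, 12 and 33 in order. Those of the other members had 17 to 57. The share among windows of like CpG content was not computed. In the 7 windows of the other members there was no TTTNNCGC, and CCAAT occurred in that of Tet3. Windows of both maintenance genes held both motifs. The part of either motif in the expression values was not tested. A match describes the letters in the window, and no binding was measured here.

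Dnmt1, the maintenance methyltransferase (chr9:20907206-20959888), was measured by 3 probe sets. The brightest, 1435122_x_at, was at 9.40, 9.62 and 9.39 on the LRC arrays against 9.97, 9.30 and 9.86 on the non-LRC arrays. LRC values lay within the non-LRC range, and non-LRC replicate 2 was the lowest of all. The difference was -0.24 (SE 0.24, 95% interval -0.81 to 0.34), or -0.11 without non-LRC replicate 1 and -0.44 without non-LRC replicate 2. The probe set 1447877_x_at gave 8.25, 8.38 and 8.18 on the LRC arrays against 8.81, 8.01 and 8.62 on the non-LRC arrays, a difference of -0.21 (SE 0.26), or -0.04 and -0.44 without the same arrays. The third, 1422946_a_at, gave 7.93, 8.46 and 8.04 on the LRC arrays against 9.02, 7.42 and 7.96 on the non-LRC arrays, a difference of 0.01 (SE 0.43) whose sign turned in 3 of 6 fits with 1 array left out. Groups overlapped in all 3. Probe sets with the suffix x may also bind other transcripts. The interval of the brightest probe set reaches to -0.81, so the data do not show that Dnmt1 was alike in the groups. The difference between Uhrf1 and Dnmt1 was not tested.

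Dnmt3a, the main de novo methyltransferase of HSCs (chr12:3801559-3914443), had a higher mean in LRC in 5 of 5 probe sets, by 0.05 to 1.18. The brightest, 1423064_at, was at 10.01, 8.99 and 9.01 on the LRC arrays against 8.88, 9.18 and 8.72 on the non-LRC arrays. LRC replicate 1 lay above the rest, and the other LRC arrays lay within the non-LRC range. The difference was 0.41 (SE 0.33, 95% interval -0.39 to 1.21), or 0.07 without LRC replicate 1 and -0.03 after adjustment for the hybridization controls. The largest difference came from 1460324_at, at 7.14, 7.93 and 8.60 on the LRC arrays against 5.62, 7.01 and 7.50 on the non-LRC arrays. There LRC replicate 1 lay inside the non-LRC range and non-LRC replicate 1 was the lowest array. That difference was 1.18 (SE 0.58, 95% interval -0.23 to 2.59), or 0.63 without non-LRC replicate 1. The probe sets 1423066_at, 1423065_at and 1423063_at differed by 0.27 (SE 0.29), 0.08 (SE 0.36) and 0.05 (SE 0.39), and the last 2 changed sign in 3 of 6 fits with 1 array left out. All 5 are listed against 1 database sequence, so their shared sign is no 5-fold replication, and 0 of 5 separated the groups.

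Dnmt3b, the second de novo enzyme (chr2:153649411-153687730), gave opposite signs in its 2 probe sets. The brighter, 1449052_a_at, was at 4.67, 7.49 and 7.46 on the LRC arrays against 7.92, 6.98 and 7.69 on the non-LRC arrays. LRC replicate 1 alone was low, and the other LRC arrays lay within the non-LRC range. The difference was -0.98 (SE 0.79, 95% interval -2.91 to 0.94), or -0.05 without LRC replicate 1. The probe set 1418351_a_at was at 5.96, 6.64 and 6.97 on the LRC arrays against 6.52, 6.04 and 6.62 on the non-LRC arrays, a difference of 0.13 (SE 0.32). The poly-A controls were brightest on LRC replicate 1, as given above; their part in its low Dnmt3b value was not tested.

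Tet1, the TET enzyme best known from embryonic stem cells (chr10:62804570-62887469), gave 2 lower and 2 higher differences. Its brightest probe set, 1419896_at, was at 4.69, 5.72 and 6.01 on the LRC arrays against 3.91, 5.76 and 5.69 on the non-LRC arrays. Replicate 1 was the low array of each group. The difference was 0.35 (SE 0.60), or -0.25 without non-LRC replicate 1. The probe sets 1429448_s_at, 1419897_at and 1455425_at differed by -0.69 (SE 0.50), 0.47 (SE 0.24) and -0.39 (SE 0.77). The first of these was -0.23 without LRC replicate 1 and -0.31 without non-LRC replicate 1. The last was at 2.59 on LRC replicate 1, against 3.78 to 5.41 elsewhere, and its difference was 0.42 without that array.

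Tet2, the TET gene mutated in clonal haematopoiesis (chr3:133463677-133545136), had a lower mean in LRC in both probe sets. The brighter, 1455300_at, was at 6.47, 7.61 and 7.47 on the LRC arrays against 7.53, 7.34 and 8.17 on the non-LRC arrays. The groups overlapped, with LRC replicate 1 the lowest array and non-LRC replicate 3 the highest. The difference was -0.49 (SE 0.38, 95% interval -1.42 to 0.43), or -0.14 without LRC replicate 1. The probe set 1438781_at was at 6.70, 5.75 and 6.24 on the LRC arrays against 8.22, 5.90 and 5.64 on the non-LRC arrays, a difference of -0.36 (SE 0.71). Non-LRC replicate 1 lay far above the others there, and without it the difference was 0.46.

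Tet3, the TET enzyme of the zygote that is also found in adult tissues (chr6:83362373-83457208), had 1 probe set, 1439324_at. It was at 5.60, 6.06 and 5.73 on the LRC arrays against 7.00, 5.87 and 5.49 on the non-LRC arrays. Apart from non-LRC replicate 1 the arrays shared 1 range. The difference was -0.33 (SE 0.41, 95% interval -1.32 to 0.67), or 0.11 without non-LRC replicate 1.

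By function, the maintenance genes had a lower mean in LRC in 4 of 5 probe sets, the de novo genes in 1 of 7 and the Tet genes in 5 of 7. The share of all probe sets was 44.7%. Probe sets of 1 gene are not independent, and 5 of the 7 de novo probe sets are those of Dnmt3a. Averaged over the brightest probe set of each gene, the differences were -0.97, -0.29 and -0.16, and averaged over every probe set per gene they were -0.90, -0.014 and -0.27, so the de novo and Tet values changed order. The maintenance value is nearly all that of Uhrf1, and it was -0.52 without non-LRC replicate 1. The de novo and Tet values were 0.01 and 0.13 without LRC replicate 1 and 0.08 and 0.26 with the hybridization control covariate, so that the sign of neither held. No p is given for these averages, since the genes were chosen with results known.

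A single array often decided a member's extreme. Non-LRC replicate 1 was the highest array for 9 of 19 member probe sets, and it is the highest for 18.7% of all. LRC replicate 1 was the lowest for 7 of 19, against 17.5% of all, and the highest for 1 of 19, against 30.5% of all. Averaged over a gene's probe sets and centred on their 6-array mean, non-LRC replicate 1 stood at 1.92 for Uhrf1, 1.04 for Tet3, 0.95 for Tet2 and 0.57 for Dnmt1, but at -0.58 for Dnmt3a and -0.34 for Tet1. On that array the members thus lay to either side of their means.

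Genes that work with the methylation enzymes were described from a list of 21 partners and recruiters, all measured and each given by its brightest probe set. Of these, 16 had a lower mean in LRC, against 45.1% of all genes, and the median difference was -0.35 against 0.03. None passed limma's adjusted threshold, 3 were lower and 0 higher at an unadjusted p under 0.05 (2.02% of all genes were lower and 1.73% higher), and for 4 every LRC value lay below every non-LRC value (3.62% of all genes). Cdca7l, a paralog of the HELLS partner Cdca7, was at 7.80, 7.76 and 7.70 on the LRC arrays against 8.21, 8.35 and 8.68 on the non-LRC arrays, a difference of -0.67 (SE 0.20). Setdb1, a histone methyltransferase of heterochromatin, was at 7.24 ± 0.40 and 8.21 ± 0.58 (SD, n = 3 each), and 1 of its 2 further probe sets shared the sign. Nsd1, a histone methyltransferase whose mark recruits DNMT3A, was at 9.68 ± 0.10 and 10.21 ± 0.24, and 1 of its 3 further probe sets shared the sign. The fourth was Hdac1, a histone deacetylase named here after its values were seen, with a difference of -0.50. Uhrf2, the paralog of Uhrf1, had a difference of 0.13 (SE 0.50), with the 1 other probe set of opposite sign. Pcna, the replication clamp that DNMT1 binds, differed by -0.35 (SE 0.26), or -0.09 without LRC replicate 1. Hells, a remodeller needed for methylation of repeats, differed by 0.14 (SE 0.66). The mean of this list was 6.43 on LRC replicate 1, 7.14 and 6.94 on the other LRC arrays and 7.08 to 7.30 in non-LRC.

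Readers and erasure partners had medians nearer to 0. In a list of 10 methyl-CpG readers and relatives of them, not all of which need read the mark, 8 were measured. Of these, 3 had a lower mean in LRC, and the median difference was 0.17. None (0) separated the groups or reached an unadjusted limma p under 0.05. Of all genes, 3.62% had LRC below and 4.71% LRC above, and 2.02% were lower and 1.73% higher at that p. In so short a list 0 is near those shares. Mbd1 was at 7.49, 6.44 and 4.42 on the LRC arrays against 7.25, 7.70 and 7.62 on the non-LRC arrays, a difference of -1.41 (SE 0.74) that was -0.56 without LRC replicate 3. Mbd3, a subunit of the NuRD complex, differed by -0.49 (SE 0.30) and Mbd4, a reader that is also a thymine glycosylase, by 0.55 (SE 0.34). Of 17 demethylation and base excision genes measured, of 20 listed, 11 had a lower mean, with a median of -0.09. Xrcc1, the scaffold of base excision repair, was at 6.85, 6.89 and 7.43 on the LRC arrays against 6.47, 6.09 and 6.79 on the non-LRC arrays, all LRC above all non-LRC (4.71% of all genes). Kdm2b, a CpG-binding histone demethylase, was at 6.32, 6.96 and 6.95 on the LRC arrays against 7.42, 7.11 and 7.50 on the non-LRC arrays. That is the reverse order, all LRC below all non-LRC (3.62% of all genes). Ung, the uracil glycosylase, differed by -1.22 (SE 0.74), a value carried by LRC replicate 1 at 5.24, and by -0.34 without it.

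Genes from the metabolism around the methyl donor and the TET cosubstrate 2-oxoglutarate, not all of which supply either, were evenly spread. Of 21 genes measured, of 25 listed, 11 had a lower mean in LRC (45.1% of all genes), with a median of -0.08. None (0) separated the groups, against 3.62% of all genes with LRC below and 4.71% with LRC above. The 3 with the smallest p were Mthfd2, a mitochondrial folate enzyme, at 0.48 (SE 0.25), Idh2, which makes 2-oxoglutarate in mitochondria, at -0.51 (SE 0.33), and Fh1, fumarate hydratase, at -0.73 (SE 0.52). The other probe set of Mthfd2 and that of Idh2 had the opposite sign. Single arrays moved these values: Idh2 was at -0.23 without non-LRC replicate 3, and Fh1 was at -0.28 without LRC replicate 1 and -0.30 without non-LRC replicate 1.

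**Figure D3:**
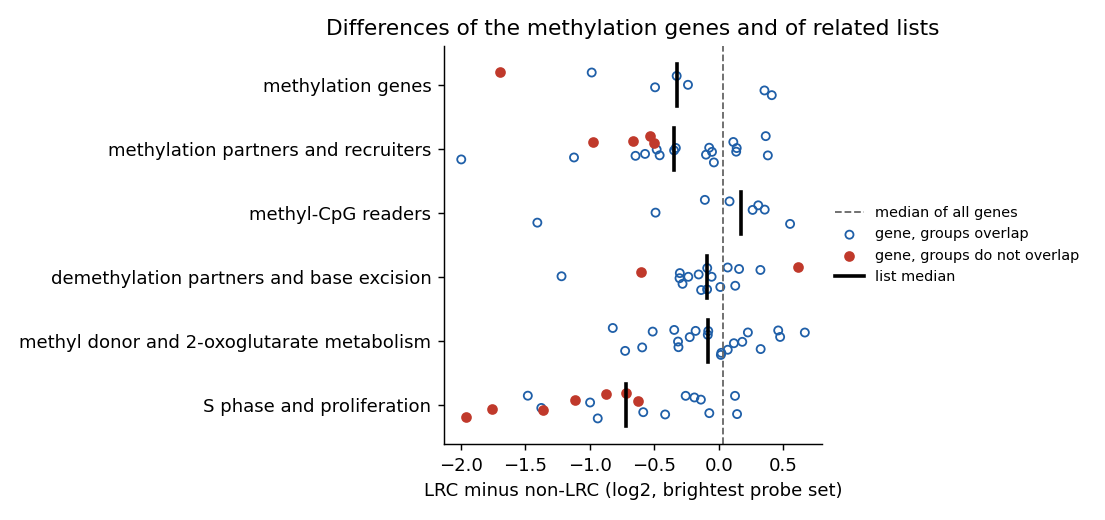
LRC minus non-LRC (log2) of each gene's brightest probe set for the 7 methylation genes and 5 related lists; filled points are genes whose groups do not overlap, thick bars are list medians and the dashed line is the median of all genes (0.03). Uhrf1, at -1.70, is the 1 filled point of the members, and the S phase list has 7.

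Uhrf1 and Dnmt1 are known to rise in S phase, so the members were set beside 19 S phase and proliferation genes. In that list 17 of 19 had a lower mean in LRC (45.1% of all genes), the median difference was -0.72, and for 7 every LRC value lay below every non-LRC value (3.62% of all genes). None passed limma's adjusted threshold. At an unadjusted limma p under 0.05, 6 were lower and 0 higher, against 2.02% and 1.73% of all genes. This list was already known to be lower in LRC from an earlier account of these data and lends no independent support. Gins1, a subunit of the replicative helicase, was at 4.83, 5.64 and 5.28 on the LRC arrays against 7.20, 6.11 and 6.53 on the non-LRC arrays. Cdc6, a loader of that helicase, was at 3.29, 4.41 and 3.28 on the LRC arrays against 6.53, 4.82 and 4.90 on the non-LRC arrays. Mcm6, a helicase subunit, was at 10.01, 10.01 and 9.78 on the LRC arrays against 10.75, 10.35 and 10.58 on the non-LRC arrays. Of the 2 further probe sets of Mcm6, 1 shared the sign. Gins1, Cdc6 and Mcm6 separated the groups as Uhrf1 did, and for all 3 the highest array was again non-LRC replicate 1. The other separated genes of the list are named here after their values were seen. Mcm3 and Ccna2 were highest on that array too, but Mcm2 and Mcm5 were highest on non-LRC replicate 3. Mki67, the proliferation antigen, was at 7.70, 9.95 and 10.05 on the LRC arrays against 10.13, 9.78 and 10.78 on the non-LRC arrays, with overlapping groups and a difference of -0.997 (SE 0.67), or -0.23 without LRC replicate 1. The list mean was 5.90 on LRC replicate 1, 6.88 on LRC replicate 2, 6.61 on LRC replicate 3 and 6.92 to 7.44 in non-LRC.

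**Figure D4:**
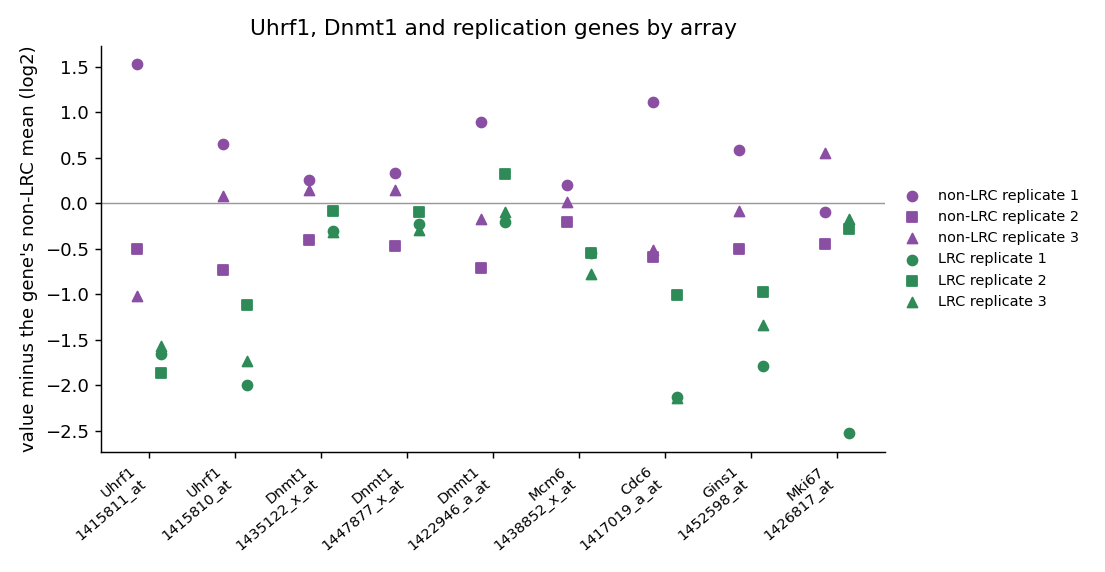
Values of Uhrf1, Dnmt1 and 4 replication or proliferation genes on each array, as the difference from the same probe set's non-LRC mean (log2); colour marks the group and symbol shape the replicate number. LRC points lie below all non-LRC points for Uhrf1, Mcm6, Cdc6 and Gins1, and among the non-LRC points for Dnmt1.

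The genes most like each member were found by the root-mean-square distance between gene-centred log2 values over the 6 arrays, among 12454 other genes above the 40th percentile. For Uhrf1 they were Dipk1b (distance 0.14), Irak1bp1 (0.28) and Fer (0.37), against a spread of 1.15 for Uhrf1 itself. Dipk1b was at 5.49, 5.01 and 5.12 on the LRC arrays against 8.33, 6.28 and 5.80 on the non-LRC arrays, with the same high array. For Dnmt1 they were Dmtf1, Zfand2b and Idh3g (0.06 to 0.09), for Dnmt3a Psmd6, 4931406C07Rik and Shroom1 (0.03 to 0.09), and for Dnmt3b Gphn, Slc39a8 and Utp15 (0.15 to 0.18). For Tet1 they were Acad9, Zfp746 and Xpo5 (0.10 to 0.14), for Tet2 Rnaseh1, Ndufv1 and Eif2b3 (0.07 to 0.09), and for Tet3 Slc16a13, Fam98c and Llgl1 (0.09 to 0.11). With 6 arrays such lists follow single arrays: without LRC replicate 1, 0 of the 3 genes nearest to Dnmt3b were kept, and without non-LRC replicate 1, 0 of the 3 nearest to Uhrf1.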

How the data were processed

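Total RNA of 6 sorted samples went through 2 rounds of NuGEN WT-Ovation Pico amplification, was biotin-labelled and hybridized to Affymetrix arrays, per the labels' protocols. The deposited values are log2 expression per probe set, made by the authors with RMA, per the submitters' processing notes; software, version and background model are not given in the sources used here, and base 2 was inferred from the values. Quantile normalization, part of RMA, hides any change in total RNA per cell. The number of arrays limits the precision. Of 45101 probe sets, 64 controls were left out of the tests. Symbols came from the platform annotation, and updating them through gene identifiers to RefSeq (GRCm38.p6) changed 0; 34945 probe sets named 1 gene, 932 several and 9160 none, which gave 18193 genes. A gene in a list is given by its probe set of highest mean.

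Groups were compared by limma 3.58.1, run in R 4.3.3 with lmFit, eBayes and no covariate, and p-values had Benjamini-Hochberg adjustment over all 45037 probe sets; errors are moderated standard errors and intervals are moderated 95% intervals. With 3 arrays against 3 an exact permutation test cannot give a p below 0.1, so none is given. The fit was tested on simulated data. Members and lists were chosen with earlier results of these data known. All probe sets of the 7 genes were named, and from each further list the 3 genes of smallest p, with Mki67, Pcna, Hells and Uhrf2 always; other genes that the rule always names are not reported here. For each member the 3 genes of nearest pattern were named. Columns of other samples numbered 0. The alternatives are given in the closing section.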

Additional observations from a re-analysis of the deposited data

Results flagged for a closer look

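The control probe sets, which took no part in the comparison, were brighter on some LRC arrays than on any non-LRC array by more than the spread of the non-LRC arrays. The 18 hybridization controls, bacterial and phage transcripts added before hybridization, averaged 11.24 on LRC replicate 1 and 11.02 on LRC replicate 3, against 10.58 to 10.70 in non-LRC and 10.60 on LRC replicate 2. The 24 poly-A controls averaged 12.79 on LRC replicate 1, against 10.73 to 11.88 in non-LRC. LRC replicate 1 was the lowest array for 7 of 19 member probe sets, against 17.5% of all: both of Dnmt3b, Uhrf1 1415810_at, Dnmt3a 1423063_at, Tet1 1429448_s_at and 1455425_at, and Tet2 1455300_at. The part of the controls in these values was not tested.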

How the results depend on the processing

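Of 14 alternatives, leaving out dim probe sets, moderation with a trend and the replicate block cannot move a difference by their construction. Over the others Uhrf1 stayed below 0 in both probe sets (-2.21 to -0.94 and -1.99 to -1.12), with limma adjusted p-values from 0.732 and 0.592 up to 1.00, and 8 of 19 member probe sets never changed sign. No probe set, member or not, passed the adjusted threshold in any alternative (0 called with each array left out, under the others and at adjusted p under 0.1). The count of members at an unadjusted p under 0.05, 2 in the main analysis, was 1 with array weights, 0 with the hybridization control covariate and 0 with LRC replicates 1 and 3 both dropped, and 1 to 3 with single arrays left out. The maintenance mean, -0.97, ran from -1.20 to -0.52 with single arrays left out, the de novo mean from -0.44 to 0.01 and the Tet mean from -0.31 to 0.13. With the covariate the de novo mean was 0.08 and the Tet mean 0.26, and with LRC replicates 1 and 3 both dropped they were 0.015 and 0.16. With that covariate the sign also turned for Dnmt3a 1423064_at (-0.034), Dnmt3b 1449052_a_at (0.19), Tet1 1455425_at (1.04), Tet2 1455300_at (0.052), Ung (0.13), Pcna (0.016) and Uhrf2 (-0.32). When LRC replicates 1 and 3 were both dropped it turned for Tet1 1455425_at (0.80), Ung (0.038), Hells (-0.24) and Uhrf2 (-0.35), and with array weights for Dnmt3a 1423065_at (-0.0074). Leaving out single arrays turned the sign within these ranges: Dnmt1 1422946_a_at -0.35 to 0.45, Dnmt3a 1423065_at -0.17 to 0.45 and 1423063_at -0.19 to 0.39, Dnmt3b 1418351_a_at -0.093 to 0.41, Tet1 1419896_at -0.25 to 0.75 and 1455425_at -0.98 to 0.42, Tet2 1438781_at -0.83 to 0.46, Tet3 -0.64 to 0.11, Hells -0.60 to 0.69 and Uhrf2 -0.30 to 0.61. The causes were not tested. Chosen after seeing the data, the count of separated probe sets was 2 to 5 for the members and 7 to 12 for the S phase list with single arrays left out (5 and 12 without non-LRC replicate 2, and 11 in the S phase list without LRC replicate 2). Over all features that share rose too, since fewer arrays overlap less easily, from 3.40% to between 6.98% and 9.38% of probe sets and from 3.62% to between 6.93% and 9.84% of genes (7.54% and 8.10% without non-LRC replicate 2). Same-numbered samples deviated together with correlations of 0.08, 0.14 and 0.08, not over 0.1 in every pair, so the numbers were not taken as pairing. Every sample still correlated best with its own number, and all other pairs were negative (-0.087 to -0.009). Deviations within a group sum to 0, so negative values must balance positive ones and are no further support for pairing. Pairing remains possible, and the errors and intervals given here come from the unpaired fit. With the replicate block the members at an unadjusted limma p under 0.05 numbered 3, and 0 were called.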
